A study of Mus musculus with 15 samples.

Results

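The genes described here are 28 genes of cholesterol synthesis and transport, chosen by their symbols from the 51826 genes that both expression tables list, with every symbol matching exactly 1 gene. They comprise 7 enzymes of the mevalonate pathway (Acat2, Hmgcs1, Mvk, Pmvk, Mvd, Idi1 and Fdps), 11 enzymes that lead from farnesyl diphosphate through squalene to cholesterol (Fdft1, Sqle, Lss, Cyp51, Tm7sf2, Msmo1, Nsdhl, Hsd17b7, Ebp, Sc5d and Dhcr7), 3 regulators (Insig1, Srebf2 and Scap), 3 genes of intracellular transport and storage (Stard4, Npc1 and Soat1), 2 efflux pumps (Abca1 and Abcg1) and 2 genes of sterol uptake (Scarb1 and Mylip). RNA-seq gave 15 libraries from 13 mice. Trim24COE mice contributed 6 tumors, of which 64, 567 and 897 are labelled carcinosarcoma and 89, 273_5 and 3956 carcinoma. The controls were the mammary glands of 4 mice with MMTV-Cre alone, numbered 133, 392, 417_3 and 517_3. A further 3 tumors (219, FVB001 and FVB002) arose spontaneously, have a genotype labelled unknown and are called non-TRIM24 tumors here. The values are TPM (transcript abundances scaled to a fixed total), which are adjusted for transcript length and library size, so levels of different genes can be set side by side. In Trim24COE mice, Cre expressed from the mammary tumor virus promoter removes a floxed stop so that a Flag-tagged mouse Trim24 transgene is made in mammary epithelium, and the control glands carry the same Cre without the transgene. The sample labels give the strain as FVB, whereas the design text of the series gives a background of FVB and 129 for the control mice. The labels give no ages. All samples are whole tissue, in which fewer cells of a type and less RNA per cell cannot be told apart.

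Cells make cholesterol from acetyl-CoA through the mevalonate pathway and a longer series of steps from squalene. The enzymes of both stretches are induced together by SREBP-2, the product of Srebf2, when sterols in the endoplasmic reticulum are low: the escort protein SCAP then carries SREBP-2 to the Golgi for cleavage, and INSIG1 holds the complex back when sterols are plentiful. Surplus cholesterol is esterified for storage by SOAT1 or leaves the cell through the ABC transporters ABCA1 and ABCG1, which are induced through the oxysterol receptors LXR, as is Mylip, a ubiquitin ligase that sends lipoprotein receptors for degradation. In the mammary gland, lipid synthesis is a property of both the secretory epithelium and the surrounding fat pad.

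Mouse 133 and mouse 3956 each had a second library in sequencing batch 2, which also held all 3 non-TRIM24 tumors, and all other libraries were in batch 1. Between 21060 and 34209 genes had a TPM above 0 in a library, and TPM keep no record of depth. Trim24 itself had 10.6 to 24.1 TPM in the 6 Trim24COE tumors and 14.5 to 22.4 TPM in the 4 control glands, so its level in these TPM did not separate them (log2 fold change -0.24, limma adjusted p = 0.557). By other means, the study reported higher Trim24 in Trim24COE tumors than in Cre-only glands: qRT-PCR for RNA, and immunohistochemistry for TRIM24 and FLAG protein. The non-TRIM24 tumors had 5.34 to 10.04 TPM of Trim24, below every Trim24COE tumor. In the same batch as these tumors, the repeat libraries of carcinoma 3956 and control gland 133 had 11.49 and 11.1 TPM. Summed over 7 markers of mammary epithelium, carcinosarcomas had 342 to 1394 TPM, carcinomas 2373 to 6064, control glands 790 to 5207 and non-TRIM24 tumors 409 to 5378, and none of the 7 was at 0 throughout a group. Markers of adipocytes (7 genes) summed to 20290 TPM in control gland 133 and 26758 TPM in gland 392, but to 1678 and 1861 TPM in glands 417_3 and 517_3, with 82.2 to 981 TPM in the Trim24COE tumors. For the non-TRIM24 tumors this sum was 37896 TPM in FVB001, 17769 TPM in FVB002 and 126 TPM in 219. The 8 macrophage markers summed to 1199 to 2796 TPM in Trim24COE tumors, 316 to 785 in control glands and 825 to 1391 in non-TRIM24 tumors, and 6 of the 8 were higher in the Trim24COE tumors than in the glands.

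The promoters of several members are shown here as examples. Hmgcs1, Insig1, Soat1 and Mylip are among the genes that differ between tumors and control glands in the results below. Mvk and Abca1 did not pass the main test there. Each line gives the 250 bases before the start site from RefSeq (GRCm38.p6), 5′ to 3′ on the strand of the gene. Hmgcs1 lies at chr13:119690101-119690350 on the plus strand, Insig1 at chr5:28071162-28071411 on the plus strand, Mvk at chr5:114444019-114444268 on the plus strand, Soat1 at chr1:156474329-156474578 on the minus strand, Mylip at chr13:45389492-45389741 on the plus strand and Abca1 at chr4:53159896-53160145 on the minus strand. Capitals mark the CCAAT box (CCAAT, or ATTGG when it lies on the other strand) and, in Hmgcs1, a sterol regulatory element (TCACNCCAC, or GTGGNGTGA on the other strand). The motifs do not overlap one another in these windows.
Hmgcs1: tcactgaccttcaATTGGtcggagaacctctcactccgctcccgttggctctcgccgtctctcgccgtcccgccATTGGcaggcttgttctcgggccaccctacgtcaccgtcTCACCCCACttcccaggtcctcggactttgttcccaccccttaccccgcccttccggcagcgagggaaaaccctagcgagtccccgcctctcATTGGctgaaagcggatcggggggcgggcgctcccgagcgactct
Insig1: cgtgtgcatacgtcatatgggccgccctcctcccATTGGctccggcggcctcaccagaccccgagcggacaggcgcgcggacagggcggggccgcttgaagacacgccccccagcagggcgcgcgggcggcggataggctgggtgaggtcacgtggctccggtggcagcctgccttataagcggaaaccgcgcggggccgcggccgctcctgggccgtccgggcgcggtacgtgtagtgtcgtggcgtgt
Mvk: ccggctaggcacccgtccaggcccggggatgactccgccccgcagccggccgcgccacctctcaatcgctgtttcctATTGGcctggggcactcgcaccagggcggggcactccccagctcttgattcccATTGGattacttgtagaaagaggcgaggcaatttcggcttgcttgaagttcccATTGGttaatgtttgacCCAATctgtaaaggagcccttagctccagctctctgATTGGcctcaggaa
Soat1: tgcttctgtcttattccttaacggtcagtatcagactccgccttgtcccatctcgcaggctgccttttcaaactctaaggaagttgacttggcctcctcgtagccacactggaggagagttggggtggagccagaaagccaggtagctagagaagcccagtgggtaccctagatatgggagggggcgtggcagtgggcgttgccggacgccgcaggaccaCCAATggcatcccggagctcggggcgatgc
Mylip: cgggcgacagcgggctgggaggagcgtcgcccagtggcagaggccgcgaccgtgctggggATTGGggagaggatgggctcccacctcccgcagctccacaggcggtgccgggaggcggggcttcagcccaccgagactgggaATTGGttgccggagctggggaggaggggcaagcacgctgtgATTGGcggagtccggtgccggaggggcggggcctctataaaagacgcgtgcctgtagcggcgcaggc
Abca1: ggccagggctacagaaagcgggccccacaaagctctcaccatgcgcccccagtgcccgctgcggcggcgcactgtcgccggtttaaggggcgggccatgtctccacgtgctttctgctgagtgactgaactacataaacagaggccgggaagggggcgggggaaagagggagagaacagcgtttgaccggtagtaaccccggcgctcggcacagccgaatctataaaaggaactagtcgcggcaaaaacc
A promoter was found by symbol for 21 of the 28 members. Sqle, Npc1, Fdps, Fdft1, Stard4, Abcg1 and Scarb1 were not matched. A CCAAT box was present in 18 of these 21 (85.7%), compared with 10133 of the 27025 genes whose promoter was searched (37.5%) and 6906 of 17492 protein-coding genes (39.5%). It was present in all 9 matched enzymes of the squalene stretch and in 5 of 6 matched mevalonate enzymes, with 5 copies in the promoter of Mvk, and absent from these windows for Acat2, Scap and Abca1. The sterol regulatory element, in these letters, was found in Hmgcs1 alone among the 21 (4.76%), at position -137, compared with 1.22% of all genes. These matches describe the letters of the windows and are no measurement of binding.

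The first comparison asked what differs in tumors of this model from normal glands, and the cholesterol genes split in direction. Soat1, the storage enzyme, was higher in every tumor than in every gland, and Dhcr7, the last reductase of the pathway, was also higher. Hmgcs1, which makes HMG-CoA at the entry of the mevalonate pathway, the sterol-sensing brake Insig1, the desaturase Sc5d, the HDL receptor Scarb1 and Mylip were lower. In limma, with values as log2(TPM + 1) and Benjamini-Hochberg adjustment over all genes tested, 7 of 28 members (25%) had an adjusted p-value under 0.05, 2 higher and 5 lower. Among all 15196 genes tested, 17.1% were past this threshold, 7.96% higher and 9.13% lower. The groups did not overlap for 5 members (17.9%), compared with 14.6% of all genes. The median log2 fold change was -0.09 over the 28 members and -0.04 over all genes, with 14 members above 0 and 14 below. The heat map of all members by library shows both the columns of individual mice and the few rows that follow the groups.

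**Figure D1:**
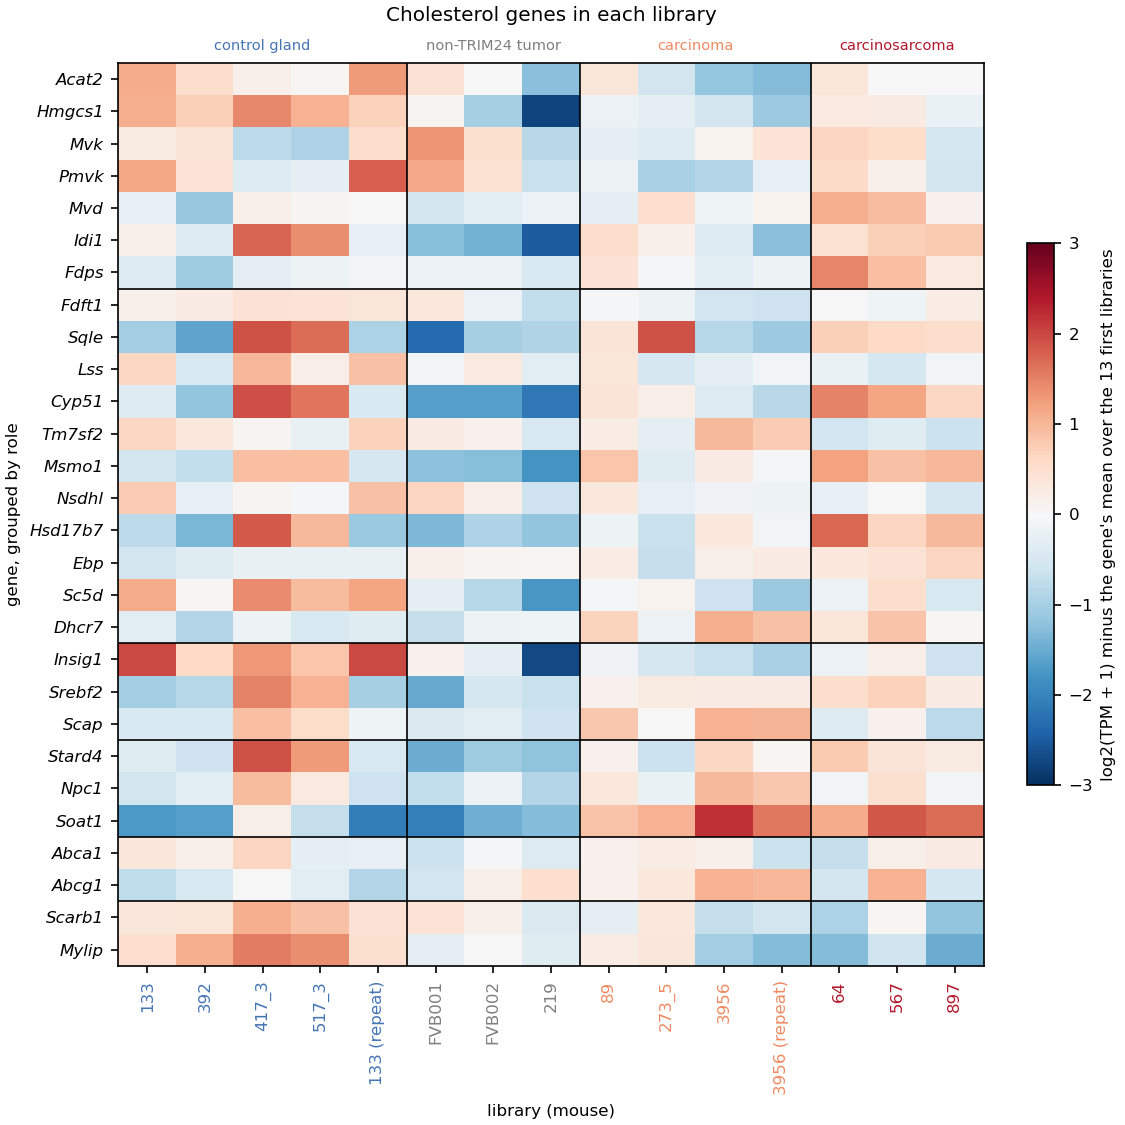
Each row is 1 of the 28 genes and each column 1 of the 15 libraries. Color gives log2(TPM + 1) minus the mean of the gene over the 13 first libraries, from -3 (blue) to 3 (red), black lines divide roles and groups, and repeat libraries are marked. Soat1 is red in all Trim24COE tumors and blue in most other columns, while Sqle, Idi1, Cyp51, Srebf2 and Stard4 are red in control glands 417_3 and 517_3 and blue in most or all libraries of glands 133 and 392.

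Soat1 (ENSMUSG00000026600.12, chr1:156424525-156474331, minus strand, GRCm38) encodes the enzyme of the endoplasmic reticulum that joins cholesterol to fatty acids for storage in lipid droplets. It had 37.3, 63.0 and 54.9 TPM in carcinosarcomas 64, 567 and 897, and 31.03, 35.0 and 79.4 TPM in carcinomas 89, 273_5 and 3956. The control glands had 4.31, 4.6, 18.8 and 9.67 TPM in mice 133, 392, 417_3 and 517_3. The lowest tumor therefore lay above the highest gland, and the glands with many adipocyte transcripts had the lowest levels. The means were 50.1 ± 19.0 TPM (SD, n = 6) and 9.34 ± 6.76 TPM (SD, n = 4), with a fitted log2 difference of 2.44 ± 0.41 (SE) (adjusted p = 0.00311 by limma). An exact permutation test of this gene alone gave p = 0.00952 (two-sided), the smallest that 6 mice against 4 allow. The call held in all 10 fits that left out a mouse, with log2 fold changes of 2.19 to 2.82.

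The macrophage markers separated the same 10 samples as Soat1 did, since their lowest sum in a tumor (1199 TPM) lay above their highest in a gland (785 TPM). With the mean of these markers as a covariate, chosen after seeing the data, the log2 fold change of Soat1 was 2.53 but its standard error was 1.08 (limma adjusted p = 0.362), and 0 of the 15196 genes were past the threshold (1966 at an unadjusted p-value under 0.05). Tumor status and macrophage content cannot be told apart in this comparison. With the adipocyte markers as a covariate, Soat1 had a log2 fold change of 1.56 (limma adjusted p = 0.0296). The other members with a role in moving cholesterol inside the cell did not pass the test. Stard4, which carries sterol between membranes in the cytosol, had a log2 fold change of -0.29 (limma adjusted p = 0.725), and Npc1, which exports cholesterol from lysosomes, one of 0.14 (limma adjusted p = 0.819).

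Hmgcs1 (ENSMUSG00000093930.1, chr13:119690379-119708260, plus strand), whose promoter carries the sterol element printed above, was the mevalonate enzyme past the threshold. It had 53.5, 51.5 and 37.6 TPM in the carcinosarcomas, 38.4, 35.6 and 29.2 TPM in the carcinomas, and 92.4, 71.6, 119 and 90.1 TPM in the control glands. Every tumor lay below every gland. The means were 40.9 ± 9.52 TPM (SD, n = 6) and 93.3 ± 19.6 TPM (SD, n = 4), with a fitted log2 difference of -1.18 ± 0.23 (SE) (adjusted p = 0.00646 by limma; exact permutation p = 0.00952), and the call held in all 10 fits that left out a mouse. An overlapping gene on the opposite strand, Gm48342, shares 557 of its 4594 exon bases.

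The other 6 mevalonate enzymes did not pass the threshold and pointed in both directions. Fdps, the farnesyl diphosphate synthase at the branch point to sterols, had a log2 fold change of 0.94 (limma adjusted p = 0.0816), Mvd, the decarboxylase, of 0.66 (adjusted p = 0.232) and Mvk, mevalonate kinase, of 0.29 (adjusted p = 0.619). Acat2, the cytosolic thiolase, had -0.62 (limma adjusted p = 0.233), Pmvk, the second kinase, -0.52 (adjusted p = 0.38), and Idi1, the isomerase, -0.36 (adjusted p = 0.587). Acat2 and Fdps share 43.7% and 27.9% of their 31-base transcript words with other genes, so their estimates rest in part on how the counting divided shared reads.

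Of the 11 enzymes from squalene to cholesterol, Dhcr7 was higher and Sc5d lower. Dhcr7 had 22.7, 32.3 and 18.03 TPM in the carcinosarcomas, 28.5, 15.3 and 37.9 TPM in the carcinomas, and 13.9, 9.15, 15.6 and 12.4 TPM in the control glands. Carcinoma 273_5 lay inside the range of the glands, and the other 5 tumors lay above it. The log2 fold change was 0.92 (SE 0.29, adjusted p = 0.0481 by limma), and it kept its call in 2 of the 10 fits that left out a mouse (log2 fold changes of 0.78 to 1.05, adjusted p 0.0255 to 0.126). The call of Dhcr7 was lost with the adipocyte covariate (adjusted p = 0.221) and without either pair of control glands (adjusted p = 0.165 and 0.0755). Sc5d had 21.3, 35.4 and 17.1 TPM in the carcinosarcomas, 23.5, 26.1 and 15.4 TPM in the carcinomas, and 53.1, 24.9, 65.9 and 47.1 TPM in the control glands. Gland 392 overlapped the tumors. Its log2 fold change was -0.99 (SE 0.31, adjusted p = 0.0491 by limma), again kept in 2 of 10 such fits and lost with the adipocyte covariate (adjusted p = 0.089) and without glands 417_3 and 517_3 (adjusted p = 0.229).

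The remaining 9 enzymes of this stretch had log2 fold changes from -0.55 for Lss, which closes the sterol ring, to 0.53 for Ebp, the sterol isomerase, with limma adjusted p-values of 0.161 or more. The rate-limiting oxygenase Sqle had 50.4, 46.2, 44.0, 40.1, 118 and 16.4 TPM in tumors 64, 567, 897, 89, 273_5 and 3956, and 14.2, 9.48, 116 and 100 TPM in glands 133, 392, 417_3 and 517_3. The tumors thus lay between 2 low and 2 high glands, apart from 273_5, which lay above them all (log2 fold change 0.30 with SE 0.73, adjusted p = 0.809 by limma).

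**Figure D2:**
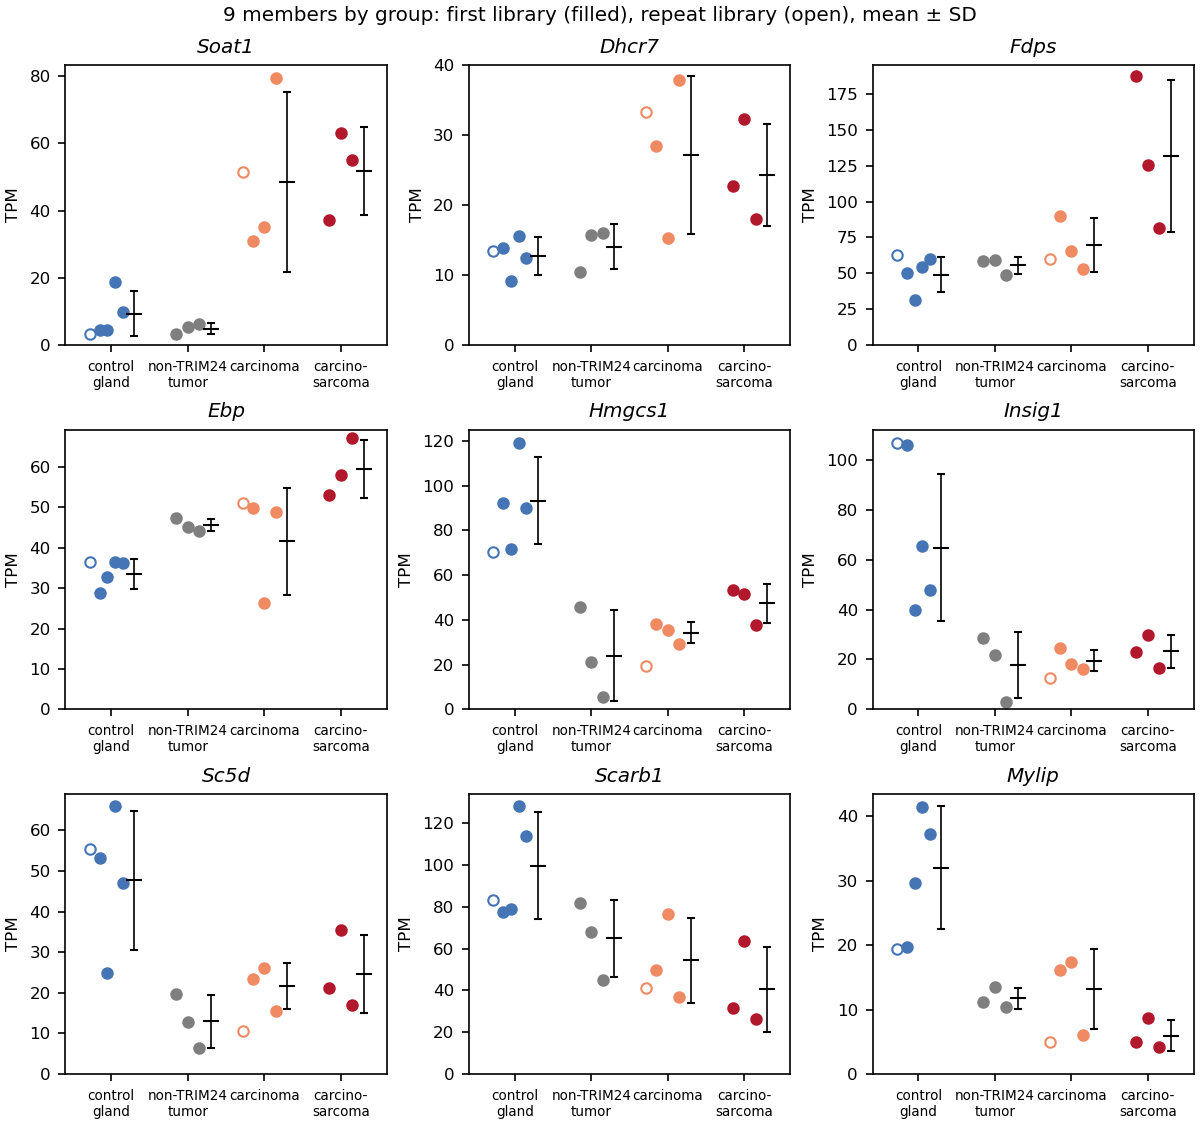
TPM of the 9 members that passed the threshold against the control glands in all Trim24COE tumors or in 1 class of tumor, by group. Filled points are first libraries of mice, open points repeat libraries of mice 133 and 3956, and bars give the mean ± SD of first libraries. Soat1 in the Trim24COE tumors (31.03 to 79.4 TPM) lies above all control glands and non-TRIM24 tumors, and Hmgcs1 and Insig1 lie below the control glands in all 3 tumor groups.

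Among the regulators, Insig1 (ENSMUSG00000045294.11, chr5:28071363-28078662, plus strand) was lower in every tumor. It had 23.1, 30.0 and 16.7 TPM in the carcinosarcomas, 24.4, 18.3 and 16.0 TPM in the carcinomas, and 106, 39.8, 65.6 and 47.7 TPM in the control glands. The means were 21.4 ± 5.39 TPM (SD, n = 6) and 64.7 ± 29.4 TPM (SD, n = 4), with a fitted log2 difference of -1.48 ± 0.29 (SE) (adjusted p = 0.00737 by limma; exact permutation p = 0.00952). The call held in all 10 fits without a mouse, and was lost with the adipocyte covariate (-1.34 on the log2 scale, adjusted p = 0.0615 by limma). Insig1 is itself a target of SREBP-2 and, in fat, of SREBP-1c. Srebf2 had a log2 fold change of 0.19 (limma adjusted p = 0.815) and Scap of 0.00 (adjusted p = 0.998).

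Both genes listed under uptake were lower, although they act in opposite ways: Scarb1 takes up sterol, whereas Mylip removes receptors. Scarb1 (ENSMUSG00000037936.15, chr5:125277087-125341094, minus strand), the receptor that takes cholesterol esters from HDL, had 31.5, 63.6 and 26.4 TPM in the carcinosarcomas, 49.7, 76.6 and 36.6 TPM in the carcinomas, and 77.5, 79.0, 128 and 114 TPM in the control glands. The highest tumor was just below the lowest gland. Its log2 fold change was -1.12 (SE 0.32, adjusted p = 0.0331 by limma; exact permutation p = 0.00952), kept in 4 of 10 fits without a mouse. The call was lost with the adipocyte covariate (-1.24 on the log2 scale, adjusted p = 0.0993 by limma) and without glands 417_3 and 517_3 (-0.81, adjusted p = 0.183). Mylip (ENSMUSG00000038175.10, chr13:45389742-45412022, plus strand), the degrader of lipoprotein receptors, had 4.90, 8.67 and 4.19 TPM in the carcinosarcomas, 16.2, 17.5 and 6.05 TPM in the carcinomas, and 19.8, 29.6, 41.5 and 37.2 TPM in the control glands. The carcinosarcomas were the lowest, with carcinoma 3956 among them. The log2 fold change was -1.77 (SE 0.41, adjusted p = 0.0147 by limma; exact permutation p = 0.00952), kept in all 10 fits without a mouse and lost with the adipocyte covariate (-1.72 on the log2 scale, adjusted p = 0.0841 by limma).

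Neither efflux pump passed the threshold in any comparison. Abca1, which loads cholesterol onto apolipoprotein A-I, had 7.74, 15.2 and 16.1 TPM in the carcinosarcomas, 14.6, 15.6 and 14.9 TPM in the carcinomas, and 17.0, 14.9, 21.5 and 10.8 TPM in the control glands. Carcinosarcoma 64 was below every gland and the other tumors were within their range. The log2 fold change was -0.18, with a 95% interval of -0.77 to 0.42 (limma adjusted p = 0.687). Abcg1, which passes cholesterol to mature HDL, had 8.46, 27.5 and 8.62 TPM in the carcinosarcomas, 14.2, 16.0 and 27.6 TPM in the carcinomas, and 7.17, 8.81, 12.6 and 9.91 TPM in the control glands. All 3 carcinomas and carcinosarcoma 567 lay above the glands. The log2 fold change was 0.65, with a 95% interval of -0.16 to 1.45 (limma adjusted p = 0.249). Of the genes that handle surplus sterol or respond to LXR, Soat1 thus rose, Mylip fell, and Abca1 and Abcg1 were not past the threshold.

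**Figure D3:**
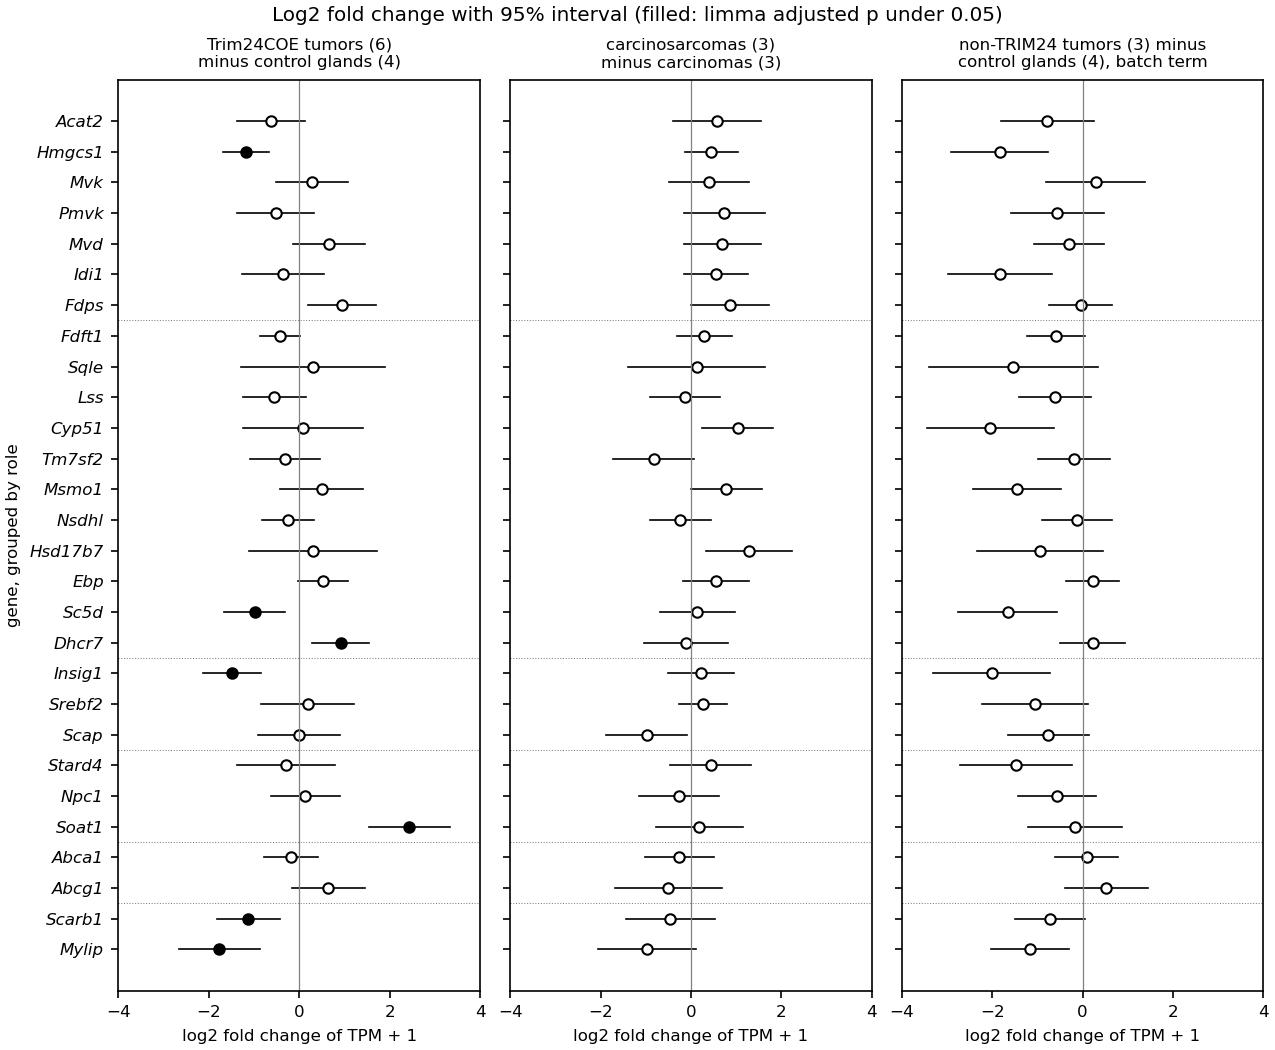
Log2 fold change of TPM + 1 with its 95% interval for each of the 28 genes, in Trim24COE tumors against control glands, carcinosarcomas against carcinomas, and non-TRIM24 tumors against control glands. Filled points have a limma adjusted p-value under 0.05. Filled points appear in the first panel alone: 2 genes higher (Soat1 and Dhcr7) and 5 lower.

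The control glands differed from one another by several fold for a number of these genes. Of the 28 members, 17 were higher in both glands 417_3 and 517_3 than in both glands 133 and 392, and 4 (Acat2, Mvk, Pmvk and Tm7sf2) were lower in both. Among 15876 genes with at least 1 TPM in 2 glands, 49.3% were higher in both and 26.0% lower in both, so a separation of these pairs was common to most genes. The ratio of the mean of 417_3 and 517_3 to the mean of 133 and 392 was 9.13 for Sqle, 8.17 for Hsd17b7, 6.15 for Cyp51, 4.94 for Srebf2, 4.89 for Stard4, 3.27 for Idi1, 3.19 for Soat1 and 3.01 for Msmo1. These 8 members exceeded a ratio of 3, as did 13.1% of the same genes, and the median ratio was 1.45 over the members and 1.26 over all these genes. Srebf2 had 84.4 and 61.5 TPM in glands 417_3 and 517_3, but 13.8 and 15.7 TPM in glands 133 and 392. The 6 tumors had 32.4 to 47.8 TPM, between the pairs. Hmgcs1 (ratio 1.28), Insig1 (0.778) and Abca1 (1.01) differed little between the same pairs. Mvk and Pmvk went the other way, with ratios of 0.403 and 0.431. Glands 417_3 and 517_3 were also those with fewer summed adipocyte transcripts, as given above, and more epithelial ones (4921 and 5207 TPM, compared with 790 TPM in 133 and 1228.5 TPM in 392), whose part in the difference was not tested.

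**Figure D4:**
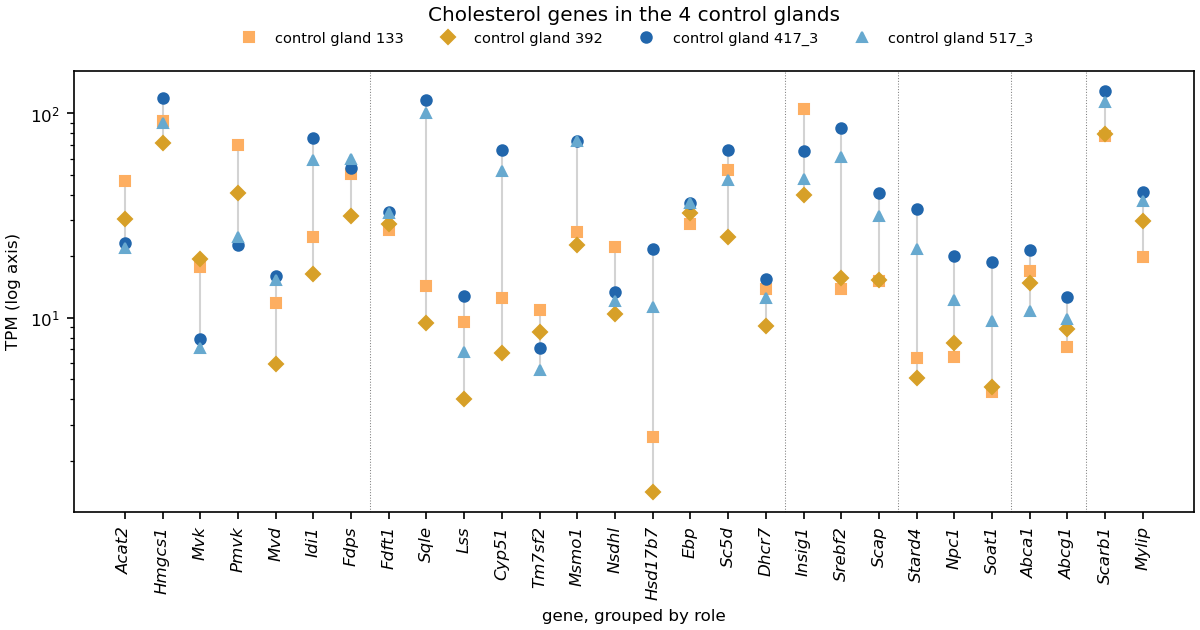
TPM on a log axis of the 28 genes in the 4 control glands, grouped by role, with a grey line from the lowest to the highest gland of each gene. Glands 417_3 and 517_3 (blue) lie far above glands 133 and 392 (orange) for Sqle, Cyp51, Hsd17b7, Srebf2 and Stard4, whereas the 4 glands lie close together for Fdft1, Ebp and Scarb1.

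The direction of several members against the control group therefore depended on the glands. Either pair was omitted in alternatives chosen after seeing the data. Against glands 417_3 and 517_3 alone, 8 of 28 members were past the threshold, 1 higher and 7 lower, compared with 16.2% of 16351 genes, 4.61% higher and 11.6% lower. In this fit 12 of 18 synthesis enzymes had negative log2 fold changes, with a median of -0.27 compared with -0.18 over all genes. Against glands 133 and 392 alone, 4 were past it, 2 higher and 2 lower, compared with 19.3% of 16628 genes (1545 higher and 1664 lower), and 9 of 18 enzymes were negative. Here the median was 0.09 over the 18 enzymes and also 0.09 over all genes. Srebf2 was past the threshold in both fits with opposite signs: its log2 fold change was -0.92 (limma adjusted p = 0.0286) against the first pair and 1.297 (adjusted p = 0.00587) against the other. These signs were fixed by the split, since every tumor lay between the pairs for this gene. Sqle moved from -1.25 (limma adjusted p = 0.16) to 1.86 (adjusted p = 0.0535), Cyp51 from -1.19 (adjusted p = 0.11) to 1.36 (adjusted p = 0.0809) and Idi1 from -1.20 (adjusted p = 0.0381) to 0.48 (adjusted p = 0.353). Soat1 was 1.73 (limma adjusted p = 0.0216) and 3.15 (adjusted p = 0.00135), Hmgcs1 -1.35 (adjusted p = 0.0112) and -1.004 (adjusted p = 0.0327), and Insig1 -1.38 (adjusted p = 0.0137) and -1.59 (adjusted p = 0.0219). These 3 genes kept their call against either pair. Their signs could not change, since every tumor lay outside the range of all the control glands. Mylip was -2.11 (limma adjusted p = 0.0271) and -1.43 (adjusted p = 0.0935).

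Each class of tumor was also compared with the same 4 glands, so these comparisons share their controls. In the carcinosarcomas, 7 of 28 members were past the threshold (25%), 3 higher and 4 lower, compared with 23.0% of 15287 genes, 9.83% higher and 13.1% lower. The groups did not overlap for 9 members (32.1%), compared with 37.0% of these genes. Fdps had 187, 125 and 81.9 TPM in carcinosarcomas 64, 567 and 897, and 31.4 to 59.7 TPM in the control glands. All 3 lay above the glands (log2 fold change 1.37 with SE 0.35, adjusted p = 0.0265 by limma). Ebp had 53.2, 58.1 and 67.2 TPM and 28.7 to 36.5 TPM in the same groups (0.81 as log2 fold change, adjusted p = 0.0319 by limma). Soat1 had a log2 fold change of 2.53 (limma adjusted p = 0.00997), Mylip of -2.26 (adjusted p = 0.00472), Insig1 of -1.37 (adjusted p = 0.034), Scarb1 of -1.35 (adjusted p = 0.0301) and Hmgcs1 of -0.95 (adjusted p = 0.0321). Of these 7, Soat1 and Mylip kept their call in all 7 fits that left out a mouse, while Hmgcs1 and Ebp kept it in 1 and the remaining 3 in 2 to 5. Against glands 133 and 392 alone, 10 members were higher and 2 lower, compared with 31.9% of 15815 genes, 14.4% higher and 17.5% lower. Against glands 417_3 and 517_3 alone, 3 were higher and 9 lower, compared with 37.6% of 15538 genes, 12.2% higher and 25.4% lower. Sqle and Stard4 were called higher in the first of these fits and lower in the other. These signs were again fixed by the split, since every carcinosarcoma lay between the pairs for both genes.

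In the carcinomas, 1 of 28 members was past the threshold (3.57%), compared with 3.50% of 15479 genes. This was Hmgcs1, with a fitted log2 difference of -1.40 ± 0.26 (SE) (adjusted p = 0.0297 by limma). It kept its call in 1 of the 7 fits that left out a mouse, the one without gland 392 (adjusted p 0.0443 to 0.105). Soat1 had a log2 fold change of 2.35 (limma adjusted p = 0.0597) and Insig1 of -1.60 (adjusted p = 0.058), with no overlap between the 3 carcinomas and the 4 glands. For 3 mice against 4, the smallest two-sided p of an exact permutation test is 0.0571, which every gene without overlap reaches. Such genes were 7 of the 28 members (25%), compared with 21.4% of the 15479 genes.

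The classes themselves were compared to ask which cholesterol genes separate metaplastic from other carcinoma. No member was past the threshold in limma, compared with 0.698% of 14193 genes, and 4 members had an unadjusted p-value under 0.05, as did 2126 of the 14193 genes, a similar share. Cyp51, the lanosterol demethylase, had 47.9, 39.2 and 26.1 TPM in the carcinosarcomas and 22.0, 19.2 and 12.3 TPM in the carcinomas (log2 fold change 1.04, 95% interval 0.25 to 1.83, limma adjusted p = 0.242). Hsd17b7, the ketoreductase, had 19.6, 8.81 and 11.3 TPM and 4.65, 2.93 and 6.81 TPM (log2 fold change 1.28, 95% interval 0.33 to 2.23, limma adjusted p = 0.231). Each carcinosarcoma lay above each carcinoma for both genes, and also for Msmo1 and Ebp, and below for Tm7sf2. These 5 members without overlap (17.9%) compare with 21.8% of all genes. All 7 mevalonate enzymes and 7 of the 11 squalene enzymes had positive log2 fold changes. The median was 0.50 over the 18 enzymes, -0.10 over all genes, -0.38 over the efflux pumps and -0.71 over Scarb1 and Mylip. Median-of-ratios scaling moved the median of all genes by 0.16, to 0.06, and the same library factors apply to the enzymes. With this scaling, 9 members had an unadjusted p-value under 0.05 in limma, as did 2250 of 14182 genes. No member was past the threshold. Soat1 had a log2 fold change of 0.19, with a 95% interval of -0.78 to 1.15. The pathology records of the study differ from one another on the class of tumors 89, 567 and 3956, and the labelled class was used.

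Non-TRIM24 tumors were included to compare tumors of this model with tumors that arose without the transgene. They were sequenced in batch 2 only, so the fit used all 15 libraries with batch as a term and the 2 libraries of a mouse linked, and the batch term rests on mice 133 and 3956. Against the control glands, 0 of 28 members were past the threshold in limma, compared with 0.709% of 16775 genes, and 8 had an unadjusted p-value under 0.05, as did 19.3% of all genes. Hmgcs1 had 45.6, 21.2 and 5.52 TPM in FVB001, FVB002 and 219. All 3 lay below the 4 glands, and 219 was far the lowest (log2 fold change -1.83, 95% interval -2.91 to -0.76, limma adjusted p = 0.106). Insig1 had 28.5, 21.6 and 3.16 TPM, again lowest in 219 (log2 fold change -2.01, limma adjusted p = 0.122). Cyp51 had 4.54, 4.57 and 2.95 TPM (log2 fold change -2.04, limma adjusted p = 0.139), below all glands. In first libraries these groups did not overlap for 9 members (32.1%), compared with 32.5% of 15311 genes. Soat1 had 3.21, 5.35 and 6.10 TPM, within the range of glands 133 to 517_3 or below it, with a log2 fold change of -0.17 and a 95% interval of -1.21 to 0.87. Of the 18 synthesis enzymes, 3 had positive log2 fold changes, with a median of -0.61 compared with -0.27 over all genes. Median-of-ratios scaling moved the latter median by 0.27, and the same library factors apply to the enzymes.

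Against the non-TRIM24 tumors, the Trim24COE carcinomas had 0 of 28 members past the threshold in limma, compared with 0.0298% of genes, and 4 at an unadjusted p-value under 0.05, near the 17.6% of all genes. The median log2 fold change was 0.46 over the members and 0.27 over all genes. In first libraries, 10 members lay wholly above and 0 below (35.7% without overlap). Of 14466 genes, 39.2% were without overlap, 4716 above and 955 below. Soat1 had the widest separation, with 31.03 to 79.4 TPM in the carcinomas, whereas the non-TRIM24 tumors had 3.21 to 6.10 TPM. Its log2 fold change was 2.48 (95% interval 1.38 to 3.59, limma adjusted p = 0.141). The repeat library of carcinoma 3956, in the same batch as the non-TRIM24 tumors, had 51.5 TPM. With first libraries and no batch term, the adjusted p-value of Soat1 was 0.0443.

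The level of synthesis against efflux was summarised per mouse as the mean log2(TPM + 1) of the 18 enzymes and of the 2 pumps. Synthesis averaged 4.74 ± 0.21 (SD, n = 3) in the carcinosarcomas, 4.34 ± 0.21 (SD, n = 3) in the carcinomas, 4.58 ± 0.43 (SD, n = 4) in the control glands and 3.80 ± 0.40 (SD, n = 3) in the non-TRIM24 tumors. Efflux averaged 3.76 ± 0.62, 4.14 ± 0.24, 3.72 ± 0.28 and 3.64 ± 0.38 in the same groups. The difference, synthesis minus efflux, was 0.98 ± 0.69, 0.20 ± 0.43, 0.86 ± 0.37 and 0.16 ± 0.71, on the log2 scale. The ranges of this difference overlapped between all groups: it ran from 0.38 in 567 to 1.73 in 64 among carcinosarcomas, from -0.22 in 3956 to 0.64 in 89 among carcinomas, from 0.37 in 392 to 1.27 in 517_3 among control glands and from -0.52 in 219 to 0.89 in FVB001 among non-TRIM24 tumors. Carcinosarcoma 64 had the highest synthesis level among the tumors and the lowest efflux level of all mice.

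**Figure D5:**
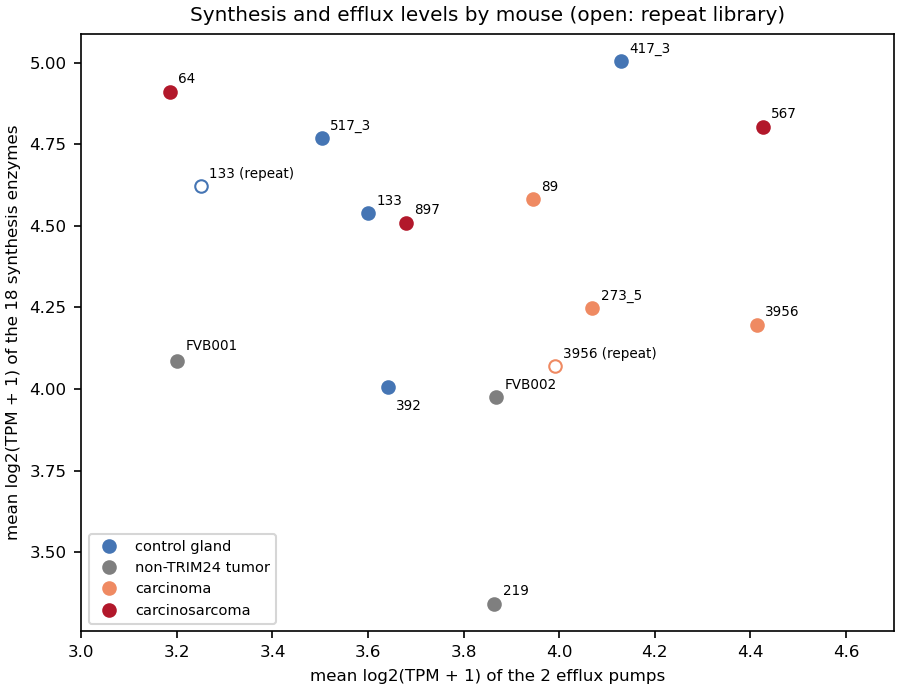
Mean log2(TPM + 1) of the 18 synthesis enzymes against that of the 2 efflux pumps, 1 filled point per mouse by group and open points for repeat libraries. Every tumor group overlaps the control glands on both axes. In first libraries, the carcinomas lie above the non-TRIM24 tumors on both axes, and the carcinosarcomas lie above them in synthesis. With no batch term, the median log2 fold change of carcinomas against non-TRIM24 tumors over all genes was 0.35 in these libraries. The repeat library of carcinoma 3956, in the same batch as the non-TRIM24 tumors, lies inside their range of synthesis (4.07, range 3.34 to 4.09). Carcinosarcoma 64 lies at top left (4.91 and 3.18), carcinoma 3956 at the right (4.197 and 4.41), and non-TRIM24 tumor 219 at the bottom (3.34 and 3.86).

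Genes near the pathway were counted in lists of their own. In the fatty acid arm, 16 genes of SREBP-1c targets and its gene Srebf1, 3 were lower and 0 higher in Trim24COE tumors than in control glands (9.13% of all genes were lower), with a median log2 fold change of -1.32 compared with -0.04 over all genes. Lpin1, a phosphatidate phosphatase, had 1.32 to 8.44 TPM in the 6 tumors and 18.6 to 37.2 TPM in the 4 glands (-2.71 as log2 fold change, adjusted p = 0.001965 by limma), and Fads1, a fatty acid desaturase, had a log2 fold change of -1.26 (limma adjusted p = 0.0286). In the carcinosarcomas 5 of the 16 were lower and 0 higher than in the glands (13.1% of all genes were lower), with a median of -1.96 compared with -0.12. They included Srebf1 itself (16.7 to 34.1 TPM compared with 67.8 to 151 TPM, -2.21 as log2 fold change, adjusted p = 0.00538 by limma), Lpin1 (-3.25, adjusted p = 0.00171) and Thrsp (-6.06, adjusted p = 0.0144). None of the 7 adipocyte markers had a positive log2 fold change against the glands in the Trim24COE tumors (median -3.83) or the carcinosarcomas (median -4.79). Of the 7, 2 and 1 were past the threshold as lower in these comparisons. Many genes of this arm are expressed in fat. The part of adipocytes in the result was not tested. In the carcinomas, Lpin1 alone was past the threshold (log2 fold change -2.17, limma adjusted p = 0.0297). In the list of 16 genes for sterol sensing, oxysterols and lysosomal transport, 2 were higher in the carcinosarcomas than in the glands, a share near the 9.83% of all genes: Nceh1, a cholesterol ester hydrolase (log2 fold change 1.36, limma adjusted p = 0.0466), and Tmem97, an endoplasmic reticulum protein that binds NPC1 (1.06, adjusted p = 0.0393). None of the 16 was past the threshold in the other comparisons. None of 8 enzymes that branch from mevalonate to prenyl groups, dolichol and ubiquinone was past it in any comparison.

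The repeat libraries show how far 2 libraries of the same mouse differed. Differences between libraries and between sequencing batches cannot be told apart in them. The ratio of repeat to first library ran from 0.649 (Abca1) to 1.56 (Pmvk) in mouse 133, with a median of 1.04, and from 0.519 (Idi1) to 1.59 (Pmvk) in mouse 3956, with a median of 0.883. Differences over 1.5-fold occurred in 2 and 5 of the 28 members, compared with 13.3% and 17.4% of genes with at least 1 TPM in both libraries. Hmgcs1 was lower in both repeats (ratios 0.76 and 0.672), as did Soat1 (0.74 and 0.648), Abca1 (0.649 and 0.551) and Idi1 (0.731 and 0.519), while Pmvk was higher in both (1.56 and 1.59). For Soat1 and Hmgcs1 these ratios are smaller than the differences between Trim24COE tumors and control glands.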

How the data were processed

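RNA-seq of 15 libraries was analysed from 2 tables of TPM, 1 per sequencing batch. The TPM were made by the authors with RSEM after Trimmomatic trimming and STAR alignment to GRCm38 with GENCODE M14, and deposited per gene. The labels also list TopHat, Cufflinks, DESeq, edgeR and FastQC without roles, and the sources differ on the RNA and library kits. Read depth and counting by strand are not given in the sources used here, so no counting interval can be had. Every column was matched to a sample by its label (0 unmatched).

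Values were taken as log2(TPM + 1), so folds of low genes are understated. A gene was tested if its TPM reached 1 in a number of libraries equal to the mice of the smaller group, using limma 3.58.1 (R 4.3.3, lmFit and eBayes with trend), with Benjamini-Hochberg adjustment over all genes and a threshold of 0.05. Comparisons of Trim24COE tumors and control glands used batch 1. For non-TRIM24 tumors, all 15 libraries were fitted, with batch as a term and duplicateCorrelation linking the libraries of a mouse. Single genes were also tested by exact permutation (scipy 1.17.1). The procedure was tested on simulated data. Genes of the related lists were named when past the threshold without overlap of groups, up to 3 per direction with the smallest adjusted p. Members, lists and tests were chosen with earlier results of these data known. Alternatives were a pseudocount of 0.1, no filter, median-of-ratios scaling, 1 fit of all batch 1 libraries, no batch term, an adipocyte covariate and leaving out each mouse. Control-gland pairs and the macrophage covariate were added after seeing the data. Transcript words of 31 bases and gene positions came from GENCODE M21, and promoters outside chromosome 18 from RefSeq, both on GRCm38.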

Additional observations from a re-analysis of the deposited data

Results flagged for a closer look

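Among 62 sets of values tested for a sample far from the others of its group, 2 stood out, both among the 6 Trim24COE tumors. Chance alone gives about 1 in 20 groups. Sqle had 117.6 TPM in carcinoma 273_5, and the nearest tumor had 50.42 TPM, a gap of 0.6635 of the whole range. Abca1 had 7.74 TPM in carcinosarcoma 64, and the nearest tumor had 14.64 TPM, a gap of 0.8283 of the range.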

How the results depend on the processing

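Between Trim24COE tumors and control glands, 7 members were past the threshold. The number was 4 with no filter on low values, 3 with the adipocyte covariate, and 4 to 7 when a mouse was left out (4 without carcinosarcoma 64, gland 417_3 or gland 517_3). Of the alternatives added after seeing the data, the macrophage covariate left 0, and with it Sc5d turned to 0.05455 (log2 fold change), while omitting glands 417_3 and 517_3 left 4. For carcinosarcomas against control glands (7 members), there were 2 with no filter, 11 with the adipocyte covariate, 0 with the macrophage covariate, 12 omitting either pair of glands, and 2 to 7 without a mouse (2 without carcinosarcoma 64, 3 without 567, 897 or gland 517_3, 4 without gland 417_3). For carcinomas against control glands (1 member), there were 0 with no filter or the macrophage covariate, 2 with median-of-ratios scaling, 3 in 1 fit of all batch 1 libraries, 3 omitting either pair, and 0 to 1 without a mouse (1 without gland 392, 0 without any other). Carcinosarcomas against carcinomas had 0 in every fit run. Non-TRIM24 tumors against control glands (0 members) had 1 with the adipocyte covariate (Insig1), 1 with no batch term (Mylip), and 0 to 1 without a mouse (1 without FVB001 or gland 392). Carcinomas against non-TRIM24 tumors (0 members) had 3 with no batch term and 0 without any one mouse. The causes were not tested. For the members past the threshold in the reported fits, 150 alternative values kept direction and call, 95 kept direction only and 1 changed direction. Members not past it, such as Sqle, Cyp51 and Srebf2, changed sign between the gland pairs. With median-of-ratios scaling, the median of all genes moved by 0.20 for carcinosarcomas against glands, and the share of calls that were higher went from 42.8% to 57.0%. For non-TRIM24 tumors against glands the share went from 28.6% to 49.4%. No paired analysis was possible because replicates are mouse numbers, none of which is shared between groups. The TPM keep no depth, and 3 or 4 mice a group limit the precision.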
